A study of Oryctolagus cuniculus with 54 samples.

Results

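The lungs of preterm rabbits 3 days after delivery (P3) were compared with the lungs of term rabbits 4 days after natural birth (T35), a pair of groups 1 day apart in postnatal age within a single sequencing run. The comparison held 5 of the 54 libraries of the series, chosen by group and run: 3 P3 animals and 2 T35 animals, all sequenced in run 2. The P3 pups were extracted by C-section on day 28 of gestation, kept for 3 days in incubators at 21% oxygen and fed a milk replacer by orogastric tube, so that they were 31 days from conception. The T35 pups were born on day 31, stayed 4 days with their mothers at room air and were 35 days from conception. All were New Zealand White rabbits without further treatment, and each lung came from the litter of a different dam. Age since conception, way of delivery, feeding and housing therefore differed together between the 2 groups, and their parts in any difference cannot be told apart. The remaining 7 libraries of run 2 came from fetal lungs collected on day 28 (F28, 2 animals), from preterm pups on the day of their C-section delivery on day 28 (P0, 3 animals) and from preterm pups 7 days after it (P7, 2 animals, 35 days from conception). They entered the same fit and give the levels before and after the 2 compared time points. The remaining T35 animal, no. 1, was sequenced only in run 1.

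At birth the lung clears its fluid and begins gas exchange, surfactant made by alveolar type 2 cells keeps the airspaces open, and capillaries and immune cells adapt to air. In the alveolar phase the walls of the primitive airspaces then raise secondary septa that divide them into alveoli. A pup delivered before this phase takes these steps with a saccular lung, and the preterm rabbit is used as a model of bronchopulmonary dysplasia, the chronic lung disease of preterm infants.

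RNA came from homogenates of the right lung and was sequenced from the 3′ end of each transcript, which yields about 1 read per transcript whatever its length. P3 libraries held 7119531 to 7707950 counts and the T35 libraries held 7179908 and 7989730. Levels are given as CPM, counts relative to the library total after scaling by the trimmed mean of M values (TMM). In a homogenate, fewer cells of a type and less RNA per cell cannot be told apart. The 29587 genes carry Ensembl identifiers without symbols, and 0 of them could be matched to a symbol with the reference table used here. Genes are therefore described by their levels and their time course, the lung's marker genes were not checked, and the identifiers of only 4 genes are given.

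The whole transcriptomes of P3 and T35 were close. Over 13791 expressed genes, the correlation of log2 CPM between a P3 and a T35 library was 0.964 to 0.97 in the 6 pairs, against 0.972 to 0.974 among the P3 animals and 0.972 between the T35 animals. P3 and F28 libraries correlated less, at 0.959 to 0.962. On the first principal component, with 24.9% of the variance, the P3 libraries scored 17, 20 and 20.2 and the T35 libraries 21.9 and 26.1. The F28 and P0 libraries lay far on the other side, between -38.7 and -31. The second axis, with 11% of the variance, separated the groups of interest, with P3 at 1.4, -10.6 and -18.4 and T35 at 43.6 and 29.2. Thus P3 and T35 lay together along the axis from the fetal to the postnatal lung and apart on the next one, and no library lay away from its own group on the first axis.

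**Figure D1:**
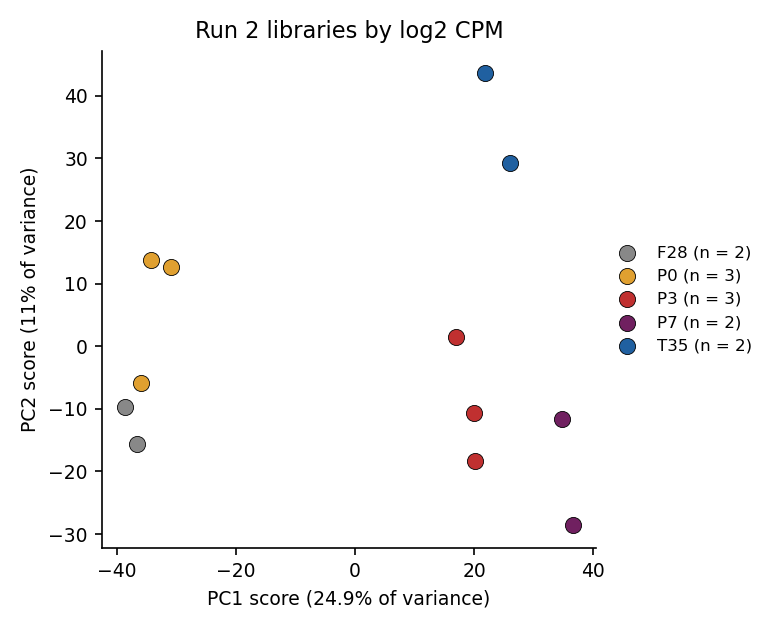
Principal component scores of the 12 run 2 libraries from log2 CPM of all expressed genes, 1 point per animal, coloured by group, with the first component (24.9% of the variance) on the x axis and the second (11%) on the y axis. P3 and T35 share the right side of the plot, away from F28 and P0, while the T35 libraries, at 29.2 and 43.6, are above all others on the second component.

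Of the 13791 genes tested, 19 were differentially expressed between P3 and T35 (0.138%), being called at a fold change (FC) over 2 with an adjusted p no higher than 0.05 in edgeR's quasi-likelihood test. Levels were higher in P3 for 9 of these genes (0.0653%) and lower in P3 for 10 (0.0725%). The same fit called 355 genes between P3 and F28 (2.57%) and 471 between T35 and F28 (3.42%), so each postnatal group lay many more genes away from the fetal lung than from the other. These contrasts share libraries and are given only side by side. At an unadjusted p under 0.05 there were 843 genes higher and 911 lower in P3 (6.11% and 6.61%). The median standard error of a gene's log2 difference was 0.272. The number of called genes depended on single animals: it was 5 without T35 no. 6, 92 without T35 no. 11 and 8 to 11 when a P3 animal was left out. Without 1 of the T35 animals that group held a single animal, assumed to vary like the other groups of run 2. The number was 122 with DESeq2 (0.885%; 51 higher, 0.37%, and 71 lower, 0.515%) and 21 with limma-voom (0.152%; 6 higher, 0.0435%, and 15 lower, 0.109%). With the run as a term and T35 no. 1 added (21 animals of 6 groups over 3 runs), 5 genes were called, of which 4 were among the 19.

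**Figure D2:**
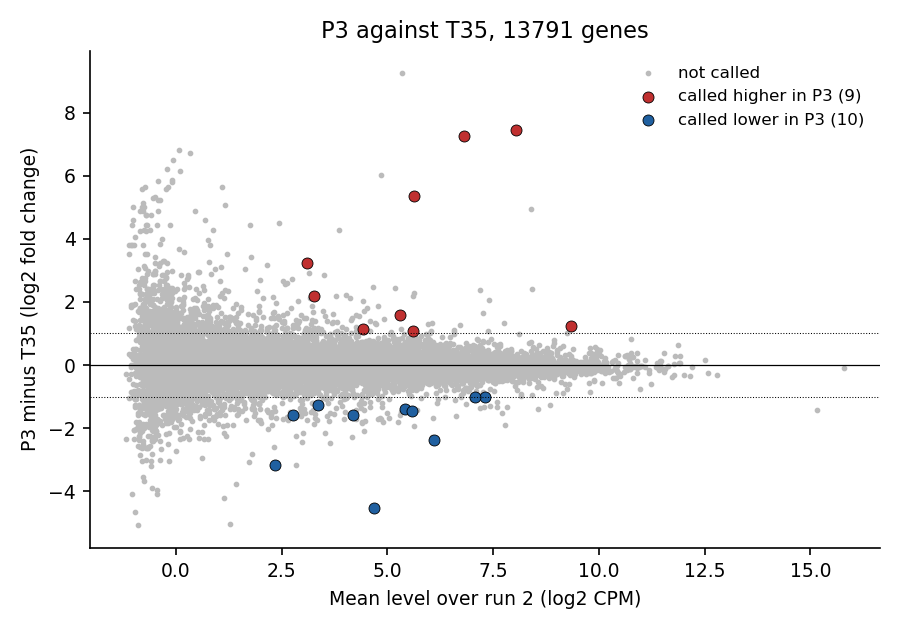
Log2 fold change of P3 minus T35 for each of the 13791 genes tested (y axis) against its mean level over run 2 in log2 CPM (x axis), with the 9 genes called higher in P3 in red, the 10 called lower in blue and dotted lines at 2-fold. Most genes lie within 2-fold of 0, and the called genes reach from 7.45 down to -4.52 on the log2 scale.

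ENSOCUG00000017744 had the largest difference of all called genes and was high in preterm pups at both postnatal ages. Its level was 581, 383 and 899 CPM in the 3 P3 animals and 3.94 and 3.11 CPM in the 2 T35 animals, a log2 FC of 7.45 ± 0.57 (SE; adjusted p = 0.000271). It was 0.581 and 4.63 CPM in F28 and 1.81 to 3.92 CPM in P0, and then 668 and 759 CPM in P7. The third P7 animal, sequenced in run 3, was at 880 CPM. In every term group the gene was low, with 0 to 3.64 CPM in the 6 T31 animals (collected at term birth, 31 days from conception like P3), 1.11 to 5.05 CPM in the 7 T35 libraries of 3 animals, 2.4 to 12.4 CPM in 4 T37 animals and 0.779 to 1.13 CPM in 3 T42 animals (6 and 11 days after term birth). The lowest P3 value was thus above every fetal, delivery day and term library. The call held without each of the 5 animals in turn, with log2 FC between 7.09 and 7.71, and with the run as a term (7.45, adjusted p = 0.000245).

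The second gene, ENSOCUG00000012678, separated P3 from T35 in run 2 without being particular to preterm pups. Its level was 100, 127 and 219 CPM in P3 and 0.563 and 1.4 CPM in T35, a log2 FC of 7.25 ± 0.61 (SE; adjusted p = 0.000404). F28 (126 and 128 CPM), P0 (113 to 262 CPM) and P7 (108 and 115 CPM) were as high as P3 in run 2. The gene was either on or off in each animal of the series: 34 libraries held 52.3 CPM or more and the other 20 held 1.74 CPM or less. All 3 P3 animals were on, and of the T35 animals only no. 1, measured in run 1, was on, at 64.6 CPM. Of the 6 T31 animals 3 were on, as were 3 of 4 T37, 1 of 3 T42, 2 of 3 P7 and 2 of 3 F28 animals. No animal with several libraries changed state between runs. Exactly 1 other gene of the table divided the libraries in the same way without overlap, at 23.1 CPM or more against 2.18 CPM or less, and it was the third in fold change between P3 and T35 (log2 FC 5.35 ± 0.55 SE, adjusted p = 0.00178), with 46.2 to 98 CPM in P3 and 0.986 and 2.18 CPM in T35. The table held 0 genes with the opposite pattern. The pair was not called in the fit of 21 animals over 3 runs, which includes T35 no. 1 and the run as a term (log2 FC 2.38 and 2.09, adjusted p = 0.956 and 0.937), nor by limma-voom on run 2 (7.22 and 5.32, adjusted p = 0.0773 and 0.0653). In run 2, being off and being T35 coincided in every library and cannot be told apart.

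The other 6 of the 9 genes higher in P3 differed between 2.11-fold and 9.4-fold, and in 7 of the 9, the pair included, T35 was below both F28 libraries. The fourth gene in fold change was at 9.42 to 19.1 CPM in P3, 14.7 and 16.9 CPM in P7 and 1.24 and 1.55 CPM in T35 (adjusted p = 0.0378). The fifth was at 16.2 to 20.3 CPM in P3, above F28 (7.48 and 8.13 CPM) and P0 (5.43 to 8.26 CPM), and at 3.89 and 3.94 CPM in T35 (log2 FC 2.19 ± 0.26 SE, adjusted p = 0.00521). Its T35 level depended on the run: nos. 6 and 11 were at 15.8 and 10.7 CPM in run 1 and 10.3 and 9.79 CPM in run 3, and no. 1, measured in run 1, was at 38.3 CPM. The eighth gene had a different course: T35 (10.9 and 12.5 CPM) spanned the level of F28 (12 and 12.3 CPM), P3 was at 21.4 to 32.5 CPM and P7 at 54.2 and 58.5 CPM (adjusted p = 0.0458 for P3 minus T35). The seventh was the most abundant of them, with 549 to 614 CPM in P3, 638 and 701 CPM in F28 and 206 and 285 CPM in T35, and reached 1110 and 1160 CPM in P7. Of the 9 genes, 5 (the pair among them) showed P3 not above F28 with T35 below it, 2 showed P3 above F28 with T35 not below it, and 2 showed both. Because the 9 were called from these P3 and T35 libraries, their positions relative to F28 are partly fixed by the choice. Their share over all genes was not counted.

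In 9 of the 10 genes lower in P3, both T35 libraries were above both F28 libraries, and in 5 of these P3 was above F28 as well, at a lower level than T35. The genes were called from the same T35 libraries, so T35 standing above other groups is partly fixed by the choice. The share of all genes with such positions was not counted. The 2 with the largest differences were ENSOCUG00000039606 and ENSOCUG00000016744. The first was at 6.33, 3.37 and 5.5 CPM in P3 and at 45.5 and 188 CPM in T35, a log2 FC of -4.52 ± 0.73 (SE; adjusted p = 0.036). It was at 1.79 and 2.03 CPM in F28, 7.01 and 54.2 CPM in P7, 0.428 to 4.36 CPM in T31, 45.4 to 206 CPM in T37 and 84.8 to 138 CPM in T42. The lowest P3 value was within the range at term birth and the others were above it. The term animals from T37 on were at or above the lower T35 value, apart from 1 value just under it. The T35 animals themselves were far apart in run 2, and T35 no. 1 was at 6.26 CPM in run 1, where nos. 6 and 11 were at 15.1 and 56.3 CPM. It kept its call in 1 of the 5 fits that left out an animal, and with the run as a term (adjusted p = 0.046).

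The second, ENSOCUG00000016744, had the same course at a lower level. P3 animals were at 1.73, 1.83 and 2.06 CPM and T35 animals at 9.58 and 24.1 CPM, a log2 FC of -3.15 ± 0.52 (SE; adjusted p = 0.0378). It was at 0.15 and 0.581 CPM in F28, 4.31 and 13.7 CPM in P7, 1.18 to 4.22 CPM in T31, 12 to 61.9 CPM in T37 and 27.5 to 33.3 CPM in T42. The 3 P3 values overlapped those of newborn term pups and were below every T35, T37 and T42 library, in any run. It was called in none of the 5 fits that left out an animal (log2 FC from -3.68 to -2.34).

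**Figure D3:**
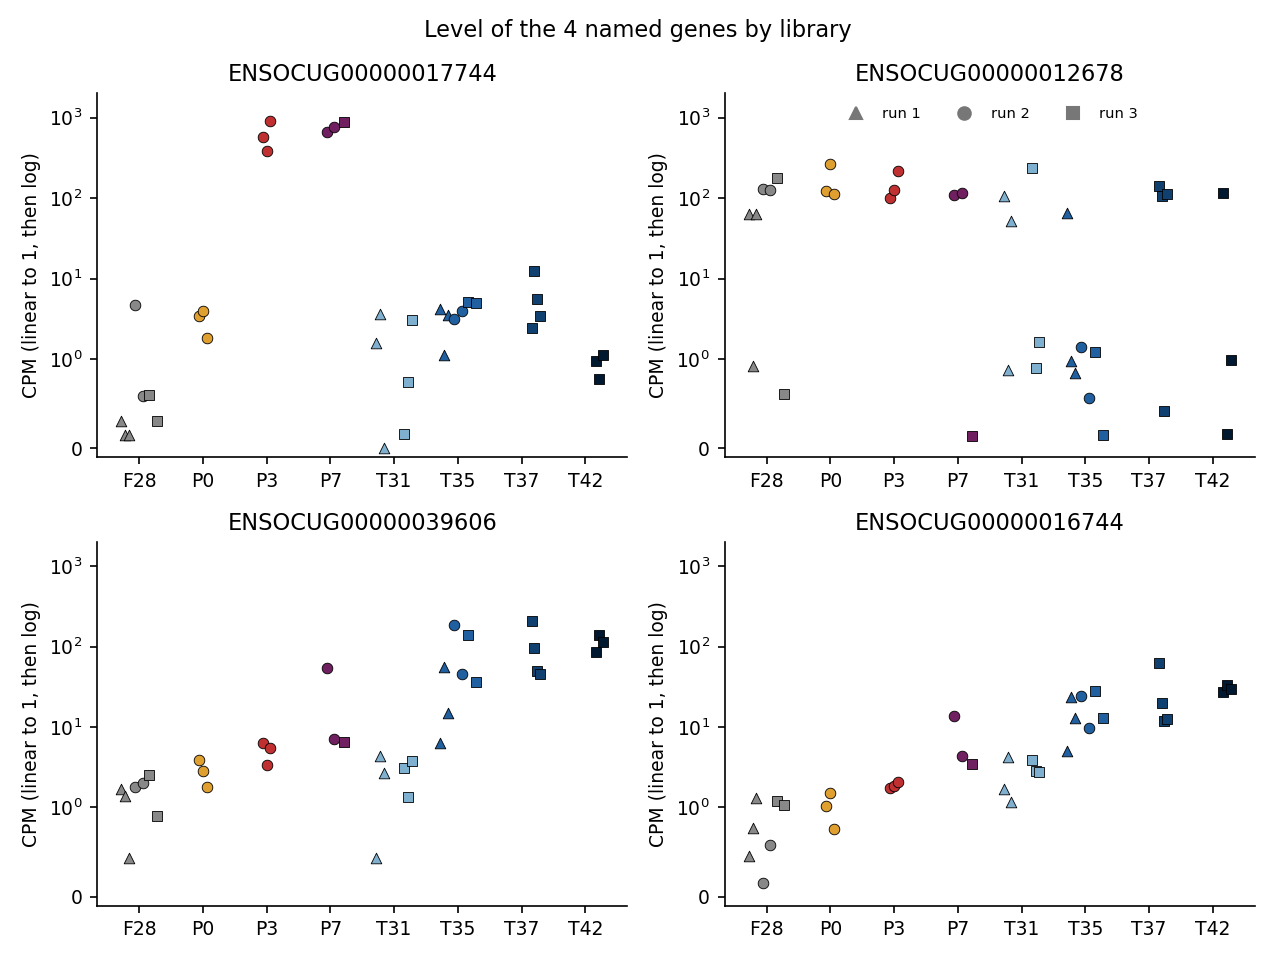
Level in CPM (y axis, linear up to 1 and logarithmic above) of the 4 genes named by identifier in each library of F28, P0, P3, P7, T31, T35, T37 and T42, with the run given by the symbol. The first gene is high in P3 and P7 alone, the second is high or near 0 within most groups, and the 2 genes of the lower row are at 1.73 to 6.33 CPM in P3 and climb in term pups from T35 on.

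Among the genes lower in P3, the third in fold change was the one called in every alternative fit. It was at 26.6 to 52.4 CPM in P3 and at 175 and 204 CPM in T35, against 3.92 and 7.33 CPM in F28 and 6.46 to 8.14 CPM in P0 (log2 FC -2.37 ± 0.28 SE, adjusted p = 0.00536). By P7 it was at 135 and 219 CPM, a range that spans the T35 values, and its difference between P7 and P3 was called as well (log2 FC 2.26, adjusted p = 0.0261). Its adjusted p over all 14 alternatives with a value was at most 0.0412. T35 nos. 6 and 11 were at 171 and 187 CPM in run 3 but at 48.6 and 53.8 CPM in run 1, with no. 1 at 31.1 CPM there, so the run 1 values lay near the P3 values of run 2. One further gene shared this course, with 3.44 to 5.18 CPM in P3, 13.2 and 13.7 CPM in T35, 0.872 and 0.897 CPM in F28 and 16.4 and 20.2 CPM in P7, where both values were above T35.

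The remaining 6 genes lower in P3 were below both T35 libraries of run 2 at P7, and 2 of the 6 were called lower in P7 than in T35. The same T35 libraries selected these 6 genes, so their position at P7 is partly fixed by the choice, and its share over all genes was not counted. In 1 of them, P3 had fallen away from the fetal level: it was at 26 and 27.5 CPM in F28, 8.63 to 9.42 CPM in P3, 8.86 and 9.98 CPM in P7 and 19.4 and 34.5 CPM in T35, so T35 kept the level of the fetal lung (adjusted p = 0.0282). Of the other 5, 4 had P3 values overlapping those of F28, with T35 2-fold to 2.62-fold above P3. The most abundant of these was at 119 to 141 CPM in P3, 114 and 129 CPM in F28, 161 to 182 CPM in P0 and 261 and 273 CPM in T35. The last was at 41.2 to 51.4 CPM in P3 and 127 and 129 CPM in T35 in run 2 (log2 FC -1.46 ± 0.15 SE, adjusted p = 0.00168). In run 3 T35 nos. 6 and 11 were at 121 and 127 CPM, but in run 1 they were at 38.1 and 33.8 CPM and no. 1 at 14.2 CPM, so the level of T35 depended on the run in which it was measured.

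**Figure D4:**
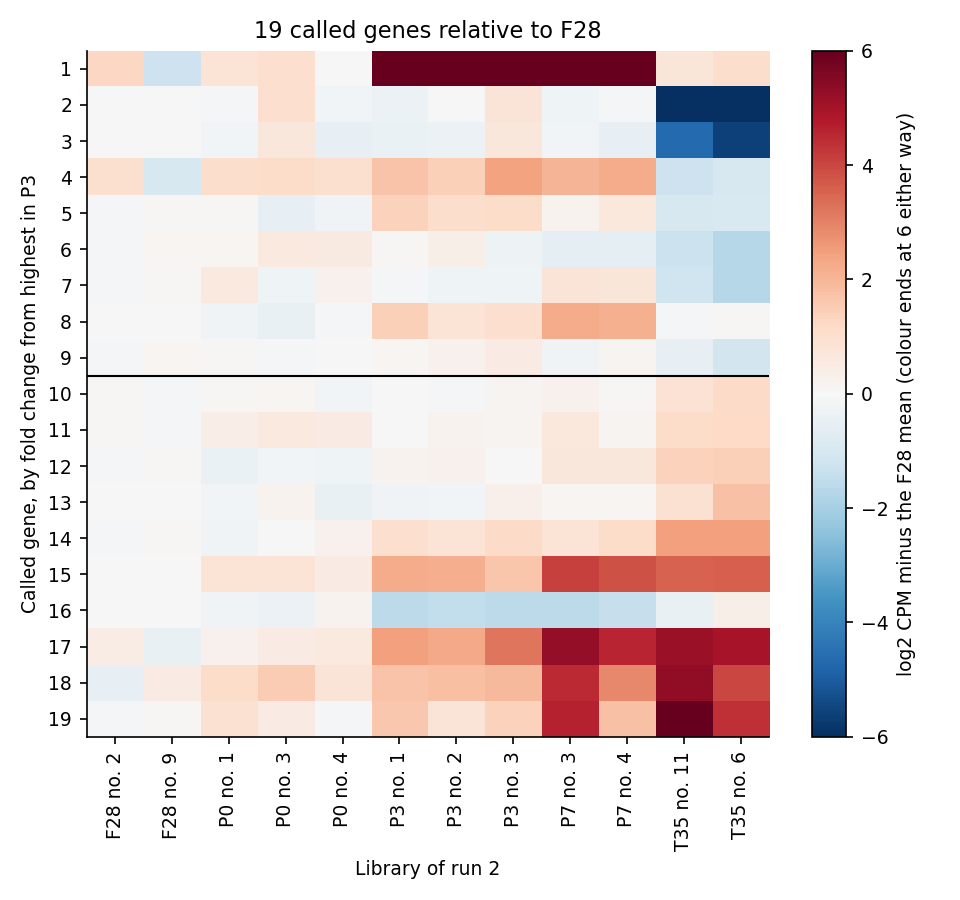
Log2 CPM minus the F28 mean for the 19 called genes (rows, ordered by fold change from highest to lowest in P3, with a line between the 9 higher and the 10 lower) in the 12 run 2 libraries (columns). Rows 1, 2 and 3 show the gene high in P3 and P7 and the pair that is off in both T35 animals, and rows 15, 17, 18 and 19 show genes at their highest in T35 or P7 with P3 in between.

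Animals at the age of P3 since conception were available at term birth (T31, 6 animals in runs 1 and 3) and are described without a test, since they share no run with P3. The mean P3 level was within the T31 range for 8 of the 9 genes higher in P3, with ENSOCUG00000017744 above it, and for 8 of the 10 genes lower in P3, with the other 2 above it. This range pools 2 runs and was wide for some genes, at 94.6 to 1550 CPM for the seventh in fold change. A level within it therefore says little, and the share over all genes was not counted. The mean T35 level of run 2 was below the T31 range in 4 of the 9 and above it in 7 of the 10. Within run 1 (3 animals each), the T35 mean was below T31 in 4 of the 9 and above it in 7 of the 10, and within run 3 (2 T35 and 3 T31 animals), below it in 7 of the 9, above it in 1, and above it in 9 of the 10. T35 nos. 6 and 11, whose run 2 libraries selected the genes, are in the T35 mean of every run. T35 standing apart from T31 is therefore partly fixed by the choice, and its share over all genes was not counted either. T35 no. 1, compared with nos. 6 and 11 within run 1, was within 2-fold of their mean in 4 of the 9 genes higher in P3 and 7 of the 10 lower in P3. It lay more than 2-fold towards the P3 side in 4 of the 9 and in 3 of the 10. In the other one of the 9, the seventh in fold change, it lay more than 2-fold to the opposite side, at 16.5 against a mean of 92.7 CPM.

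The test of whether the change after delivery differed, P3 minus P0 set against T35 minus F28, called 17 genes (0.123%). It shares the P3 and T35 libraries with the main comparison. For ENSOCUG00000017744 the log2 difference of the changes was 7.22 (adjusted p = 0.0183). The change to P3 is over 3 days from a C-section and the change to T35 over 7 days and a natural birth.

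Several genes with large differences did not pass the test. Among genes with a mean above 3 log2 CPM and an absolute log2 FC above 4, 4 of 8 were not called, all higher in P3. The first of these was at 9.49, 66.2 and 143 CPM in P3 and 0.845 and 1.4 CPM in T35 (adjusted p = 0.0547). It was at 1.89 and 2.69 CPM in F28, 24.7 to 114 CPM in the 3 P7 animals and 0.987 to 6 CPM in T37 and T42, while 1 of the 6 T31 animals reached 72.4 CPM. The second was at 50.2, 614 and 1580 CPM in P3 and 11 and 37.6 CPM in T35 (adjusted p = 0.137). It reached 174 to 2730 CPM in the 3 P7 animals, against 0.884 to 7.17 CPM in T31 and 37.9 to 48.8 CPM in T42. In both genes P3 no. 1 was the lowest and P3 no. 3 the highest. The third was at 34.2, 46.7 and 86.5 CPM in P3 and at most 0.155 CPM in T35 (adjusted p = 0.246), but it was high or near 0 by animal in P0 (0.302, 0.452 and 95.1 CPM) and P7 (0.291 and 47.7 CPM in run 2). It was high in F28 (86.7 and 117 CPM) and ranged from 0.291 to 56.3 CPM in T31, 0.281 to 48.5 CPM in T37 and 0.279 to 45.8 CPM in T42. Its high level was thus not particular to preterm pups. The last was split within P3, at 20.1, 1.26 and 35.5 CPM, against 0.423 and 1.55 CPM in T35 (adjusted p = 0.331). It was at 21.5 and 21.9 CPM in F28 and reached 16.3 CPM in T31, 27.2 CPM in T37 and 3.49 CPM in T42.

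Differences among the most abundant transcripts were mostly small. Of the 100 genes with the highest mean level, 0 were called in edgeR's quasi-likelihood test, against 0.138% of all genes. In the same test 21 of the 100 had an unadjusted p under 0.05 (12.7% of all genes did). By more than 1.5-fold 5 differed, and the median absolute log2 difference over the 100 was 0.15. These 100 genes took 29.4% to 31.1% of the counts in P3 and 33.6% to 34% in T35, without overlap. That share includes the second most abundant gene, given below, which was higher in T35, and it was not counted without this gene. The most abundant gene was at 58600 to 74500 CPM in P3 and 73400 and 73900 CPM in T35. The second most abundant was at 17200, 29900 and 37200 CPM in P3, 22500 and 31600 CPM in P7, 27200 and 42200 CPM in F28 and 66600 and 85500 CPM in T35. Its log2 FC between P3 and T35 was -1.43 ± 0.29 (SE), short of the threshold of adjusted p (0.0636), although both T35 values were above every other value named. DESeq2 and limma-voom each called 1 of the 100 genes, and it was this one (adjusted p = 0.0059 and 0.0482).

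Genes that change along the normal course of term development were then followed in P3 and T35. These gene sets came from libraries of other runs: within run 3, 570 genes were higher in T37 than in T31 (3.85% of those tested) and 266 were lower (1.8%). Of the genes higher in T37, 554 were tested between P3 and T35, and their median log2 difference was -0.22, with 65.9% below 0, against 49.5% of all genes. Of them 131 (23.6%) were lower in P3 at an unadjusted p under 0.05 and 13 (2.35%) higher, against 6.61% and 6.11% of all genes. The like set of genes higher in T42 than in T31, chosen after seeing the data, had a smaller median of -0.07, with 56.2% below 0. Of the 10 genes called lower in P3, 7 were in the set higher in T37, ENSOCUG00000039606 and ENSOCUG00000016744 among them. Of the 9 called higher in P3, 1 was in it, ENSOCUG00000017744. In that set 1.26% of the tested genes were called lower and 0.181% higher, against 0.0725% and 0.0653% of all genes. The 259 tested genes that were lower in T37 showed the opposite, with a median of 0.28, 32.4% below 0, 54 genes (20.8%) higher in P3 at an unadjusted p under 0.05 and 8 (3.09%) lower, and 2 called, both higher in P3. Across 13644 genes the correlation of P3 minus T35 with T37 minus T31 was weak (r = -0.138, rho = -0.158).

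By library, the mean level of the falling set relative to F28 was -0.11, 0.06 and -0.18 log2 in P3 and -0.38 and -0.34 in T35, without overlap, and -0.1 and -0.29 in P7. The rising set was at -0.08, -0.23 and -0.01 in P3, 0.37 and -0.02 in T35 and 0.14 and 0.33 in P7, so T35 no. 11 lay among the P3 values. Without T35 no. 6 the median of the rising set was -0.07 and that of the falling set kept its sign, as it did in all alternatives (0.19 to 0.34).

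Genes that moved around birth were followed in the same way. Within run 1, 116 genes were higher in T31 than in F28 (0.795%) and 115 were lower (0.788%). The run 1 F28 animals include both animals of the run 2 F28 baseline, so a height relative to F28 was partly fixed by the choice of the set, while P3 and T35 were not among the groups contrasted. The rising set stood at 0.86 to 1.04 log2 above F28 in P3 and 1.01 and 1.18 in T35, with a median difference of 0. DESeq2 called 7 of its 116 tested genes and limma-voom 3, against 0.885% and 0.152% of all genes. In edgeR's test 0 of its genes were called, and 20 were higher and 21 lower in P3 at an unadjusted p under 0.05. The unadjusted counts are 17.2% and 18.1% of the set, against 6.11% and 6.61% of all genes. The falling set was at -1.07, -1.12 and -0.94 in P3, while the 2 T35 animals were far apart at -0.16 and -1.05. Its median of -0.5 accordingly became 0 without T35 no. 6 and -0.79 without T35 no. 11. Of its 110 tested genes, 0 were called in edgeR's test and 39 were lower and 6 higher in P3 at an unadjusted p under 0.05. These are 35.5% lower and 5.45% higher, against 6.61% and 6.11% of all genes. DESeq2 called 19 lower and 1 higher, against 0.515% lower and 0.37% higher of all genes, and limma-voom 0. Before birth, again within run 1, 645 genes rose from F25 to F29 (4.42%) and 437 fell (2.99%). The rising genes had a median difference of 0 between P3 and T35 and held 3 of the 9 genes called higher in P3. These 3 are 0.47% of the set, against 0.0653% of all genes. DESeq2 called 13 of its 638 tested genes higher and 5 lower, against 0.37% and 0.515% of all genes. Limma-voom called 3 higher and 1 lower, against 0.0435% and 0.109%. The falling genes had a median of -0.15, which changed sign without T35 no. 6 (0.16). Of 401 tested, edgeR's test called 0 and limma-voom 0. DESeq2 called 28 lower and 2 higher, against 0.515% lower and 0.37% higher of all genes. In edgeR's test 79 were lower and 13 higher at an unadjusted p under 0.05. The last are 19.7% and 3.24% of the set, against 6.61% and 6.11% of all genes.

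**Figure D5:**
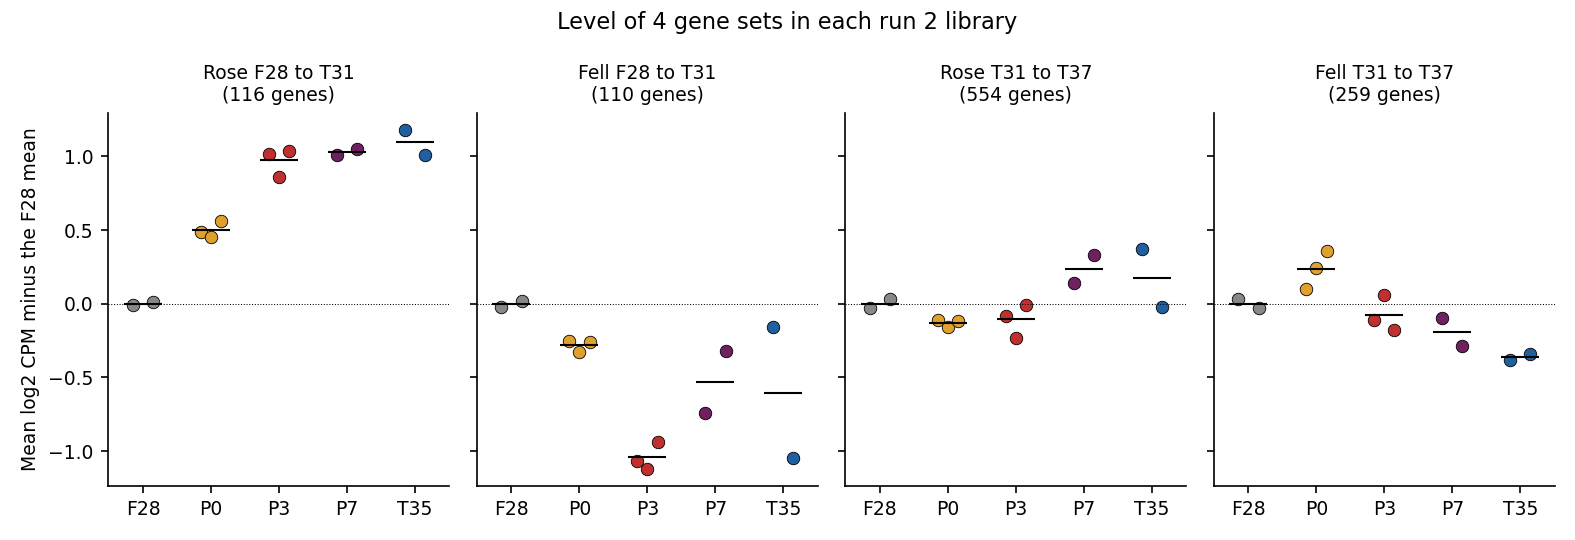
Mean log2 CPM minus the F28 mean (y axis) of 4 gene sets in each run 2 library, 1 point per animal with a line at the group mean. The sets were taken from other runs, as genes higher or lower in T31 than F28 (run 1) and in T37 than T31 (run 3). P3 and T35 are near each other for genes that rose at birth, the T35 animals are split at -0.16 and -1.05 for genes that fell, and P3 lies above T35 in the last set, where T35 is at -0.38 and -0.34.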

How the data were processed

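The deposited table holds whole-number read counts per Ensembl gene for 54 libraries of 45 animals, without normalization, with 0 columns of no sample. According to their methods, the authors made QuantSeq FWD libraries, trimmed the reads with BBduk, used STAR for alignment against OryCun2.0 and HTSeq for counting. A custom script of theirs added reads in unannotated 3′ UTRs. The submitters' processing notes name FastQC, STAR, HTSeq and OryCun2.0, and tool versions are not given in the sources used here. Libraries of run 2 held 6683823 to 7989730 counts; at this depth 0.5 CPM is a few reads, and the number of animals limits the precision further.

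Groups and runs came from the labels. Counts of all 12 run 2 libraries were fitted with edgeR 4.0.16 (R 4.3.3; glmQLFit and glmQLFTest, group means, TMM), keeping genes that reached 0.5 CPM in 3 or more libraries, with Benjamini-Hochberg adjustment over all 13791 genes. The call required an FC over 2 and an adjusted p no higher than 0.05. The SE is the log2 FC divided by the square root of the test statistic. Printed levels use TMM over all 54 libraries, while principal components and set levels use log2 CPM with a prior count of 2. Identifiers were printed for the 2 called genes with the largest log2 FC in each direction whose groups did not overlap and whose higher mean was at least 2 CPM. Genes described without an identifier were chosen after their values were seen. The pathway and cell type lists drawn up for this comparison could not be applied, since no identifier matched a symbol. The comparison and its lists were chosen with earlier results of these data known. Gene sets from runs 1 and 3 were fitted in the same way within each run, over all its libraries, and were added after seeing the data. Alternatives used DESeq2 1.42.0, limma-voom (limma 3.58.1), RLE size factors, other filters, glmTreat at 1.5-fold, the 5 libraries alone, the run as a term, and each animal left out. Scripts were tested on simulated data. Plots were made in Python 3.11.15 (matplotlib 3.10.9).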

Additional observations from a re-analysis of the deposited data

Results flagged for a closer look

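The change from P0 to P3 and the change from F28 to T35 differed by the test of the difference itself (edgeR's quasi-likelihood test) for 6 of the 19 called genes past the same thresholds as the calls. Over all 13791 genes this test called 17 (0.123%). It shares the P3 and T35 libraries with the calls, so the called genes were favoured in it in advance. The difference was 7.22 for ENSOCUG00000017744 (adjusted p = 0.0183), 6.88 for ENSOCUG00000012678 (0.00703), 5.25 for the third gene in fold change (0.0181) and 2.4 for the fifth (0.0267). It was -1.51 (adjusted p = 0.0181) and -1.5 (0.0267) for 2 genes lower in P3. For ENSOCUG00000012678 and the third gene, each animal of the series was either on or off. In run 2 all F28 and P0 animals were on, while F28 no. 7, sequenced only in runs 1 and 3, was off.

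1 of 8 groups examined held a sample far from the others: ENSOCUG00000016744 was at 61.9 CPM in 1 of the 4 T37 animals, and the next highest was at 20.1 CPM. Chance flags about 1 in 20 such groups.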

How the results depend on the processing

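None of the 19 called genes changed direction in any alternative that gave a value. The call count of 19 (9 higher and 10 lower in P3) became 5 (3 and 2) with the run as a term and 3 T35 animals, 122 (51 and 71) with DESeq2, 233 (102 and 131) without a filter on low counts and 6 (4 and 2) with glmTreat at 1.5-fold. By the adjusted p alone it was 36, with 23 lower. Leaving out 1 animal gave 5 to 92 calls, 2 to 19 higher and 3 to 73 lower, and 4 of the 19 genes stayed called in all 5 of these fits. The 5 libraries alone, limma-voom, RLE size factors, 0.5 CPM in 2 libraries and 10 counts in every library gave 17 to 21 calls and kept 12, 13, 18, 19 and 12 of the 19. The cause of these shifts was not tested. DESeq2 left the adjusted p of 3484 genes undefined. The set from T42 in place of T37, chosen after seeing the data, had a median of -0.07 (rising) and 0.31 (falling). Counts over gene lists could not be run. At these depths 0.5 CPM is a few reads, which limits genes near that level. No paired analysis was possible because each lung came from the litter of a different dam and the labels mark no pairs.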
